A study of Mus musculus with 9 samples.

Results

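The YAP/TAZ genes described here were 10 of the 55704 genes in the expression table. They were chosen by name for their place in the Hippo pathway, with earlier results of these data known. They were the coactivators Yap1 and Wwtr1 (the gene for TAZ), the DNA-binding partners Tead1 and Tead2, the target genes Ccn1, Ccn2, Ankrd1 and Amotl2, and the regulators Lats2 and Ajuba. They were measured by bulk RNA-seq in neural stem cells (NSCs), the cells that divide to renew themselves and give rise to neurons and glia, isolated from the subventricular zone (SVZ) of C57BL/6 mice aged 8 to 9 weeks. Each isolation pooled 2 female and 2 male mice, and the cells were passaged at least 3 times in suspension and then plated for 16 to 18 hours before day 0. The bFGF/EGF-treated NSCs, cultured with 20 ng/mL of each factor, were collected at day 0. The bFGF/BMP4-treated NSCs, in which 20 ng/mL BMP4 replaced EGF, and the BMP4-treated NSCs, in which 20 ng/mL BMP4 replaced both factors, were collected at day 6. No day 6 group was kept in bFGF/EGF, so that the treatment and the 6 days in culture cannot be told apart in a comparison with bFGF/EGF-treated NSCs. Each group had 3 libraries, named biological replicates by the submitters, which share mice where they came from 1 isolation. In bulk samples, fewer cells of a kind and less RNA per cell cannot be told apart.

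The Hippo pathway is a kinase cascade in which the MST kinases activate the LATS kinases, and LATS phosphorylates YAP and TAZ and so keeps them out of the nucleus. YAP and TAZ that reach the nucleus bind the TEAD transcription factors and switch on genes such as Ccn1 and Ccn2, which encode secreted matricellular proteins. Cell density, attachment and tension on the actin cytoskeleton are known inputs of the pathway, and it is known to act in the growth of neural progenitors. Since YAP and TAZ are controlled largely by phosphorylation and location, RNA levels do not measure their activity.

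Levels are given as FPKM (fragments scaled to gene length and library size, a measure per length). The libraries held 15892854 to 17419822 fragments on genes, rebuilt from the FPKM values. A gene was called changed at a Benjamini-Hochberg adjusted p of at most 0.05 and a fold of at least 2 in limma, fitted on log2(FPKM + 0.1) over 20207 genes with a mean of at least 0.1 FPKM. Log2 fold changes are on that scale, with their standard errors (SE), and understate the change of low genes. The table holds all 10 genes, and 9 passed the filter on low values.

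TEAD proteins recognise the core GGAATG, and the sequences that hold it next to the start sites are shown because TEAD proteins are the DNA-binding partners of YAP and TAZ. RefSeq's table of start sites (GRCm38.p6) held 8 of the 10 genes, and Ccn2 and Tead1 had no entry. The core, searched on both strands, was in the 250 bases before a start site of 6 of the 8 genes, Yap1, Wwtr1, Ccn1, Ankrd1, Amotl2 and Ajuba, and in 12.6% of all 32851 windows of the same length. Windows of the same gene can overlap, and a match is a description of letters and not a bound site. The AP-1 motif TGANTCA and the CArG box, which binds SRF, were in none of the 8 genes' windows and in 6.75% and 1.47% of all windows. The GC-rich SMAD element GGCGCC, which can bind the effectors of BMP signalling, was in the windows of Ccn1 and Lats2 and in 9.59% of all windows. None of these searched letters overlapped a TEAD core. The matched cores with 12 bases on each side follow, with the core in capitals, on the strand that reads GGAATG and at their positions in GRCm39.
Ajuba, chr14:54815265-54815294, plus strand: ttgtttacagttGGAATGcgcggaggggca
Ajuba, chr14:54815287-54815316, plus strand: gaggggcactgtGGAATGtatccatcaacg
Amotl2, chr9:102594926-102594955, minus strand: gctgctatgccaGGAATGtgagagtttcag
Ankrd1, chr19:36097350-36097379, minus strand: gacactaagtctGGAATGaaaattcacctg
Ankrd1, chr19:36097437-36097466, minus strand: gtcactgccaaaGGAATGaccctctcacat
Ccn1, chr3:145355826-145355855, plus strand: tcaaacatctcaGGAATGttggttggcgcg
Wwtr1, chr3:57483450-57483479, minus strand: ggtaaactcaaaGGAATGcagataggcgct
Yap1, chr9:8004721-8004750, minus strand: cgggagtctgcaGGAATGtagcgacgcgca

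Both Ajuba cores lie in an exon of the long non-coding RNA gene Gm63340, which runs on the other strand, at 164 to 159 and 186 to 181 bases before the start of Ajuba. The Ccn1 core, 103 to 98 bases before the start, lies in an exon of the long non-coding RNA gene Gm17501, also on the other strand. The Ankrd1 and Amotl2 cores lie within annotated exons of their own genes (GENCODE vM39), since other transcripts start further upstream. The Yap1 and Wwtr1 cores are in no annotated exon. The whole window of Ccn1 is shown because, among the genes with an entry, Ccn1 had the largest changes with BMP4. It is chr3:145355741-145355990, read on the minus strand of GRCm39, where the core appears as its reverse complement in capitals.
Ccn1 window: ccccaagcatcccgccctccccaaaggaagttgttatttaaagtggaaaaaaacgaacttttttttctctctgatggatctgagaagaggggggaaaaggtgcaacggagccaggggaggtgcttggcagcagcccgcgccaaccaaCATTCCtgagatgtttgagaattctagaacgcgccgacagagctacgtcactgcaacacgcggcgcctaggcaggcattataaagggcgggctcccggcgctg

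In bFGF/BMP4-treated against bFGF/EGF-treated NSCs, 5 of the 9 genes tested were called higher (Yap1, Wwtr1, Ccn2, Amotl2 and Ajuba) and 0 lower, where 30.6% of all genes were called, 16.5% higher and 14.1% lower. In BMP4-treated against bFGF/EGF-treated NSCs, 6 were called higher (Wwtr1, Ccn1, Ccn2, Amotl2, Lats2 and Ajuba) and 0 lower, where 36.6% of all genes were called, 21.3% higher and 15.4% lower. In BMP4-treated against bFGF/BMP4-treated NSCs, 4 were called higher (Ccn1, Ccn2, Lats2 and Ajuba) and 0 lower, where 13.5% of all genes were called, 8.41% higher and 5.14% lower. limma gave 1, 2 and 1 lower genes in these comparisons at an unadjusted p under 0.05, and limma-voom on the rebuilt fragment numbers called 5, 6 and 4 higher and 0 lower. At an adjusted p of at most 0.05 without the minimum fold, 7, 8 and 6 of the 9 genes passed, where 48.6%, 54.9% and 21.1% of all genes did. The groups did not overlap for 7, 9 and 6 of the 9 genes, where they did not for 57.7%, 60.4% and 38.7% of all genes. The median log2 fold changes of the 9 genes were 1.35, 1.69 and 0.71 in these comparisons, and those of all genes tested were 0.06, 0.10 and 0. The comparisons share libraries, so their counts are not independent of each other. The genes were also chosen with earlier results of these data known, so the counts are a description.

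**Figure D1:**
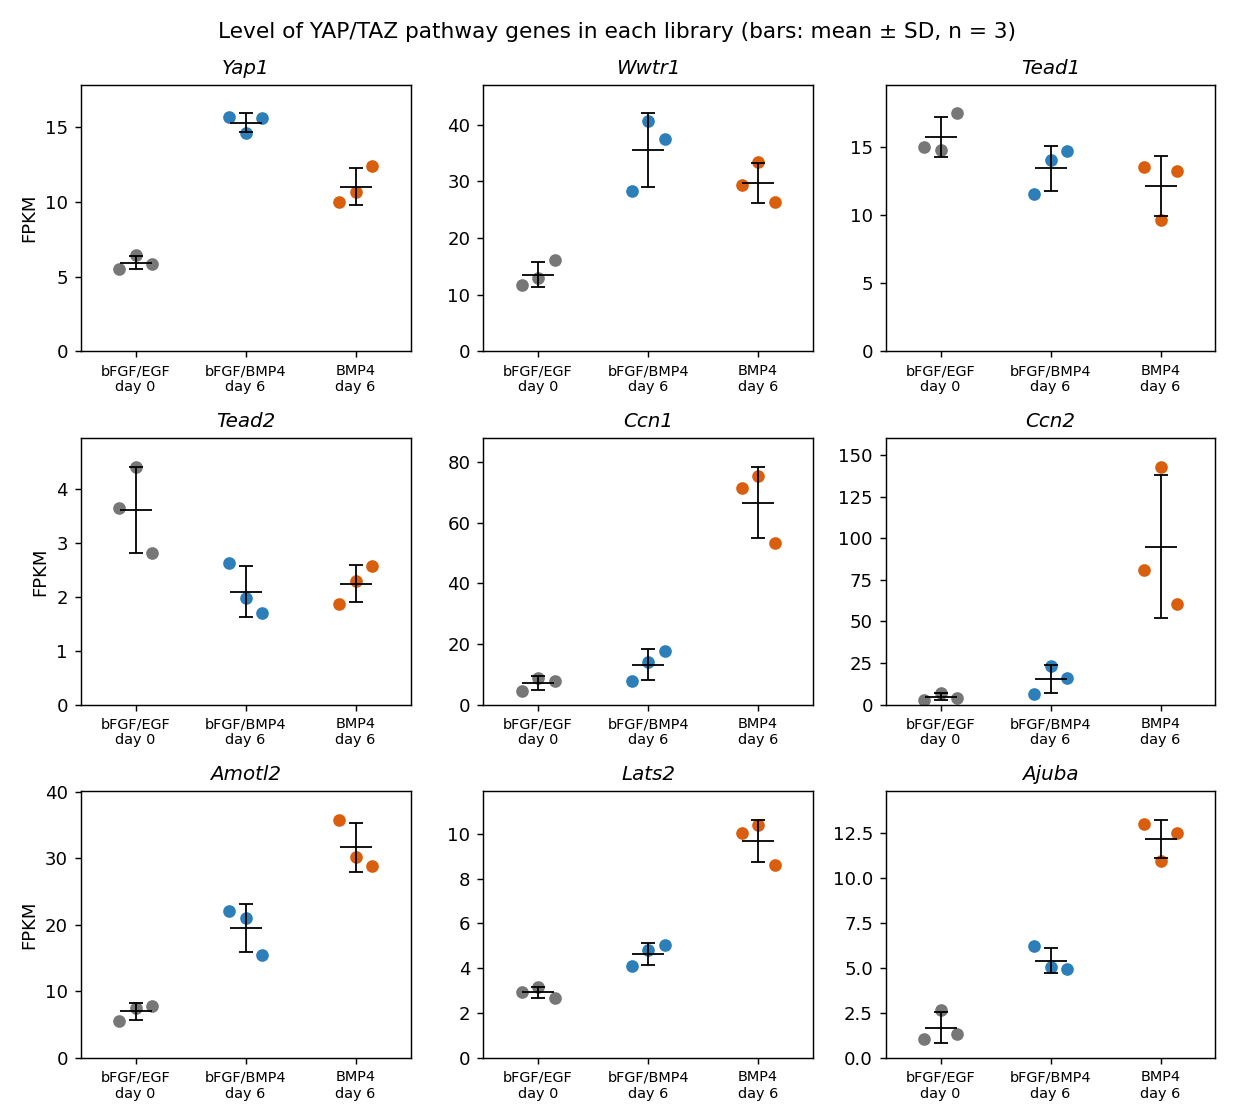
FPKM of the 9 tested genes in each of the 9 libraries, 1 panel per gene with the 3 groups on the x axis; points are libraries and bars are the mean ± SD of 3 libraries. Yap1 was highest in bFGF/BMP4-treated NSCs (mean 15.3 FPKM), whereas Ccn1 (66.7 FPKM) and Ccn2 (94.9 FPKM) were highest in BMP4-treated NSCs.

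Both coactivators rose with bFGF/BMP4 and with BMP4 alone, where the rise of Yap1 was below 2-fold. Yap1 (ENSMUSG00000053110, chr9:7932000-8004661, minus strand, GRCm39) encodes YAP. It measured 5.53, 6.41 and 5.86 FPKM in bFGF/EGF-treated NSCs, 15.7, 14.6 and 15.6 FPKM in bFGF/BMP4-treated NSCs, and 9.96, 10.7 and 12.4 FPKM in BMP4-treated NSCs. The 3 groups did not overlap, with bFGF/BMP4 above BMP4 and BMP4 above bFGF/EGF. Yap1 rose by 1.35 ± 0.12 (log2 fold change ± SE, adjusted p = 1.2e-05) with bFGF/BMP4. With BMP4 alone the difference from bFGF/EGF was 0.88 ± 0.12 (adjusted p = 0.00015), which is below a 2-fold change, and so was the difference of BMP4 from bFGF/BMP4, -0.47 ± 0.12 (adjusted p = 0.017).

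Wwtr1 (ENSMUSG00000027803, chr3:57363067-57483331, minus strand) encodes TAZ, the paralog of YAP. Its levels were 11.7, 12.9 and 16.1 FPKM in bFGF/EGF-treated NSCs, 28.2, 40.8 and 37.5 FPKM in bFGF/BMP4-treated NSCs, and 29.4, 33.5 and 26.5 FPKM in BMP4-treated NSCs. Every day 6 library was above every bFGF/EGF-treated library, and the day 6 groups overlapped. Wwtr1 rose by 1.38 ± 0.17 with bFGF/BMP4 (adjusted p = 0.00011) and by 1.13 ± 0.17 with BMP4 (adjusted p = 0.00030), and the day 6 groups differed by -0.24 ± 0.17 (adjusted p = 0.38). Per length, Wwtr1 was at 1.80 to 3.14 times the FPKM of Yap1 in the 9 libraries. The summed FPKM of both coactivators was 17.2 to 21.96 in bFGF/EGF-treated NSCs, 43.9 to 55.3 in bFGF/BMP4-treated NSCs and 38.8 to 44.1 in BMP4-treated NSCs.

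The DNA-binding partners did not pass the call in any of the 3 comparisons. Tead1 (ENSMUSG00000055320, chr7:112278522-112506014, plus strand) was at 15.01, 14.8 and 17.5 FPKM in bFGF/EGF-treated NSCs, 11.5, 14.1 and 14.7 FPKM in bFGF/BMP4-treated NSCs, and 13.5, 9.64 and 13.3 FPKM in BMP4-treated NSCs. The day 6 libraries all lay below the lowest bFGF/EGF-treated library, the nearest being bFGF/BMP4 replicate 3 and the farthest BMP4 replicate 2. The log2 fold changes were -0.23 ± 0.16 (adjusted p = 0.26) with bFGF/BMP4 and -0.39 ± 0.16 (adjusted p = 0.063) with BMP4. The day 6 groups differed by -0.15 ± 0.16 (adjusted p = 0.56).

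Tead2 (ENSMUSG00000030796, chr7:44865172-44883071, plus strand), the family member known for its high level in early embryos and neural progenitors, was at 3.65, 4.41 and 2.81 FPKM in bFGF/EGF-treated NSCs. It was at 2.63, 1.97 and 1.70 FPKM in bFGF/BMP4-treated NSCs and 1.88, 2.30 and 2.57 FPKM in BMP4-treated NSCs. The lowest bFGF/EGF-treated library was just above the highest day 6 library. The differences were -0.76 ± 0.22 (adjusted p = 0.018) with bFGF/BMP4 and -0.65 ± 0.22 (adjusted p = 0.031) with BMP4, both under 2-fold, and the day 6 groups differed by 0.10 ± 0.22 (adjusted p = 0.81).

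Tead1 held 63.8% to 82.3% of the FPKM summed over Tead1 to Tead4 in every library. The other 2 family members belong to the list of other Hippo pathway genes. Tead3, which reads the same core, was at 0.482, 0.772 and 0.910 FPKM in bFGF/EGF-treated NSCs, 3.88, 2.28 and 2.49 FPKM with bFGF/BMP4, and 2.43, 1.64 and 2.90 FPKM with BMP4. Tead3 was called higher in both day 6 groups, by 1.86 ± 0.30 (adjusted p = 0.00059) and 1.56 ± 0.30 (adjusted p = 0.0014). Tead4 is named here after its values were seen, since its mean was below the minimum of 1 FPKM set for naming genes. It had 2, 5 and 2 fragments in bFGF/EGF-treated NSCs and 2, 2 and 7 fragments in bFGF/BMP4-treated NSCs, and 72, 72 and 104 fragments (1.23, 1.24 and 1.75 FPKM) in BMP4-treated NSCs. Tead4 was called higher with BMP4 than with bFGF/EGF (adjusted p = 3.1e-05) and than with bFGF/BMP4 (adjusted p = 0.00017), with no overlap, and its fitted folds depend on the pseudocount because the other groups are near 0. Its share of the summed Tead FPKM was at most 0.696% in the bFGF/EGF-treated and bFGF/BMP4-treated libraries and 6.47% to 8.55% in the BMP4-treated libraries.

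**Figure D2:**
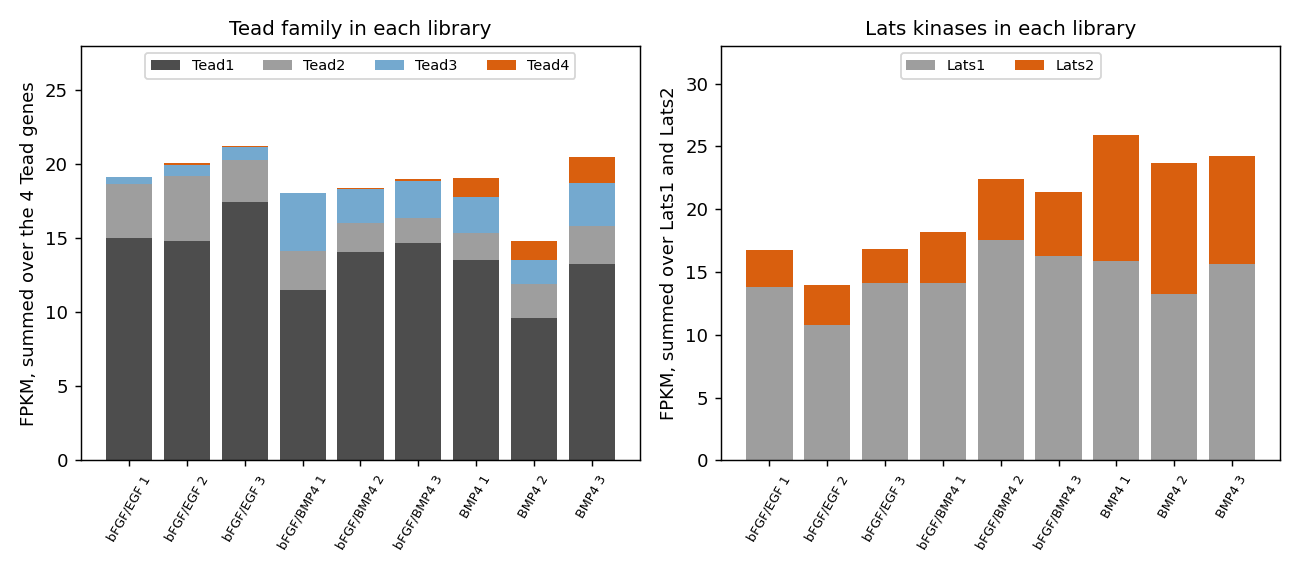
FPKM in each library summed over the 4 Tead genes (left) and over the LATS kinase genes Lats1 and Lats2 (right); each bar is 1 library, named by group and replicate, and colours are genes. Tead1 made up 63.8% to 82.3% of each left bar, and the Lats2 part of the right bars was largest in the 3 BMP4-treated libraries (8.61 to 10.4 FPKM).

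The secreted targets Ccn1 and Ccn2 were highest in the BMP4-treated NSCs. Ccn1 (ENSMUSG00000028195, chr3:145352720-145355738, minus strand, formerly Cyr61) encodes a matricellular protein that binds integrins. Ccn1 was at 4.34, 8.77 and 7.93 FPKM in bFGF/EGF-treated NSCs, 7.71, 13.9 and 17.8 FPKM in bFGF/BMP4-treated NSCs, and 71.4, 75.4 and 53.2 FPKM in BMP4-treated NSCs. The BMP4-treated libraries lay far above the other 6, which overlapped between their groups. Ccn1 rose by 3.28 ± 0.33 in BMP4-treated against bFGF/EGF-treated NSCs (adjusted p = 2.0e-05) and by 2.40 ± 0.33 against bFGF/BMP4-treated NSCs (adjusted p = 0.00060). With bFGF/BMP4 the difference from bFGF/EGF was 0.88 ± 0.33 (adjusted p = 0.0503), which did not pass, and the call depended on single libraries. It was 1.07 (adjusted p = 0.042) without bFGF/EGF replicate 2 and 1.22 (adjusted p = 0.0091) without bFGF/BMP4 replicate 1.

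Ccn2 (ENSMUSG00000019997, chr10:24471333-24474900, plus strand, formerly Ctgf) encodes connective tissue growth factor. It was at 2.78, 7.09 and 4.17 FPKM in bFGF/EGF-treated NSCs, 6.50, 23.4 and 15.8 FPKM in bFGF/BMP4-treated NSCs, and 81.2, 143 and 60.5 FPKM in BMP4-treated NSCs. The 3 BMP4-treated libraries were all above the other 6, and BMP4 replicate 2 was more than 1.5 times above the others of its group. The FPKM of all genes also summed highest in that library, to 326302, beside 256230 to 294652 in the others. Ccn2 rose by 4.32 ± 0.49 in BMP4-treated against bFGF/EGF-treated NSCs (adjusted p = 4.5e-05), a 20.0-fold change, and by 2.72 ± 0.49 against bFGF/BMP4-treated NSCs (adjusted p = 0.0030). It was also called higher with bFGF/BMP4 than with bFGF/EGF, by 1.60 ± 0.49 (adjusted p = 0.022), although these groups overlapped. That call was lost without bFGF/EGF replicate 1 (1.28, adjusted p = 0.083) or 3 (1.57, adjusted p = 0.055), without bFGF/BMP4 replicate 2 (1.20, adjusted p = 0.083) or 3 (1.48, adjusted p = 0.065), and when only those groups were fitted (adjusted p = 0.058). The ratio of Ccn2 to Ccn1 was 0.526 to 0.809 in bFGF/EGF-treated NSCs, 0.844 to 1.68 in bFGF/BMP4-treated NSCs and 1.14 to 1.90 in BMP4-treated NSCs.

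Ankrd1 (ENSMUSG00000024803, chr19:36089352-36097506, minus strand), a target known best from heart and vessel cells, was not detected beyond 1 fragment. That fragment was in bFGF/EGF replicate 3, and the other 8 libraries held 0. A count of 0 allows up to 3 fragments in a library, which is 0.118 to 0.141 FPKM for this gene, for counting error only. Ankrd1 was therefore not tested, and a difference was not detectable at this depth.

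Amotl2 (ENSMUSG00000032531, chr9:102593836-102610617, plus strand) encodes a junction protein that binds YAP and holds it in the cytoplasm, and is itself a YAP target. It was at 5.58, 7.51 and 7.86 FPKM in bFGF/EGF-treated NSCs, 22.2, 21.1 and 15.4 FPKM in bFGF/BMP4-treated NSCs, and 35.8, 30.2 and 28.9 FPKM in BMP4-treated NSCs. The 3 groups did not overlap. Amotl2 rose by 1.47 ± 0.18 with bFGF/BMP4 (adjusted p = 9.3e-05) and by 2.17 ± 0.18 with BMP4 (adjusted p = 5.0e-06). The difference between the day 6 groups, 0.71 ± 0.18 (adjusted p = 0.018), was below 2-fold.

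**Figure D3:**
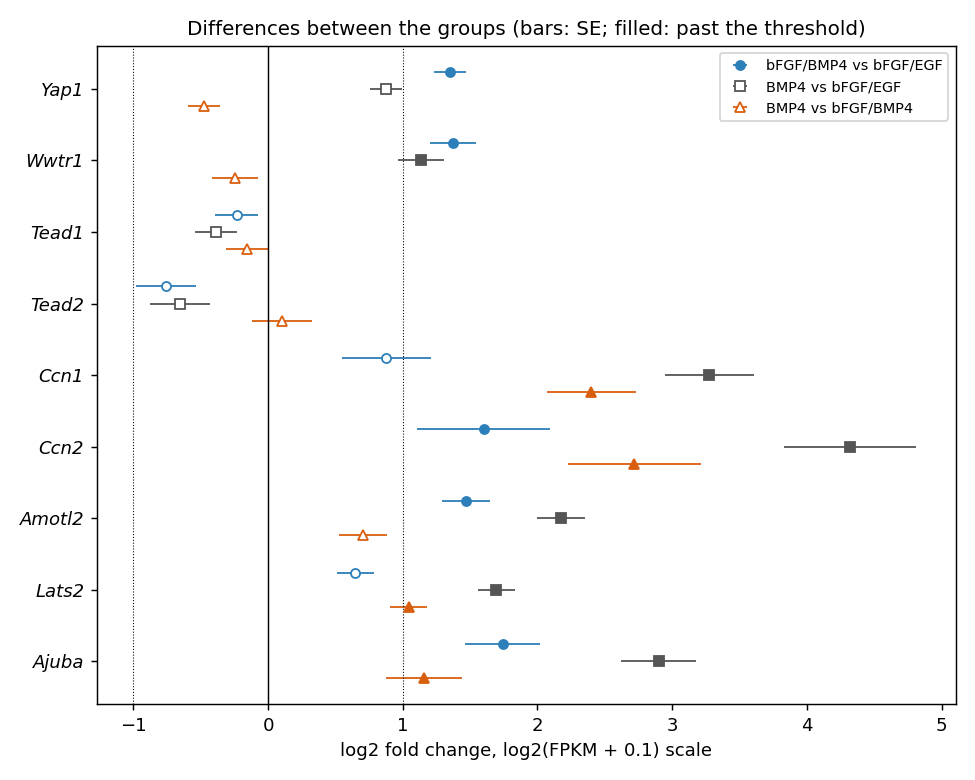
Log2 fold change of the 9 tested genes on the log2(FPKM + 0.1) scale in the 3 comparisons (colour and symbol); bars are standard errors, filled symbols passed the call and dotted lines mark 2-fold. Ccn2 was the farthest to the right in each comparison with BMP4-treated NSCs (4.32 and 2.72), and Tead1 and Tead2 stayed within 2-fold.

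The regulators Lats2 and Ajuba were highest with BMP4 alone. Lats2 (ENSMUSG00000021959, chr14:57926960-57995845, minus strand) encodes a kinase that phosphorylates YAP and TAZ and is also one of their targets. It was at 2.94, 3.15 and 2.67 FPKM in bFGF/EGF-treated NSCs, 4.09, 4.81 and 5.04 FPKM in bFGF/BMP4-treated NSCs, and 10.0, 10.4 and 8.61 FPKM in BMP4-treated NSCs. The 3 groups did not overlap. Lats2 rose by 1.69 ± 0.14 in BMP4-treated against bFGF/EGF-treated NSCs (adjusted p = 5.0e-06) and by 1.04 ± 0.14 against bFGF/BMP4-treated NSCs (adjusted p = 0.00048). With bFGF/BMP4 it was 0.65 ± 0.14 above bFGF/EGF (adjusted p = 0.0032), below 2-fold. The difference between the day 6 groups is close to 2-fold and falls below it without bFGF/BMP4 replicate 1 (0.96), without BMP4 replicate 2 (0.99), with a pseudocount of 1 (0.92) and on the TPM scale (0.97), with adjusted p at or below 0.0025 in each.

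Lats1, the paralog of Lats2, did not pass in any comparison (0.31 ± 0.14, 0.21 ± 0.14 and -0.10 ± 0.14, with adjusted p of 0.099, 0.24 and 0.70). It was at 10.8 to 14.1 FPKM in bFGF/EGF-treated NSCs, 14.1 to 17.6 FPKM with bFGF/BMP4 and 13.3 to 15.9 FPKM with BMP4. The Lats1 gene overlaps Pcmt1 on the other strand (mean 25.2 FPKM in bFGF/EGF-treated NSCs and 27.5 FPKM with bFGF/BMP4), and whether the counting used strand is not given in the sources used here. The ratio of Lats1 to Lats2 was 3.43 to 5.29 in bFGF/EGF-treated NSCs, 3.24 to 3.66 in bFGF/BMP4-treated NSCs and 1.28 to 1.81 in BMP4-treated NSCs.

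Ajuba (ENSMUSG00000022178, chr14:54804787-54815027, minus strand) encodes a LIM-domain protein that binds LATS kinases and restrains them. It was at 1.03, 2.65 and 1.32 FPKM in bFGF/EGF-treated NSCs, 6.23, 5.06 and 4.96 FPKM in bFGF/BMP4-treated NSCs, and 13.0, 10.97 and 12.5 FPKM in BMP4-treated NSCs. The 3 groups did not overlap. Ajuba rose by 1.74 ± 0.28 with bFGF/BMP4 (adjusted p = 0.00060), by 2.90 ± 0.28 with BMP4 (adjusted p = 1.5e-05), and by 1.16 ± 0.28 from bFGF/BMP4 to BMP4 (adjusted p = 0.015). The last call was lost without bFGF/BMP4 replicate 2 (adjusted p = 0.052) or 3 (adjusted p = 0.055) and without BMP4 replicate 1 (adjusted p = 0.054), with log2 fold changes of 1.10 to 1.11.

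The 10 genes overlap a few genes on the other strand, all with group means of at most 1.87 FPKM. The highest was 2310014F06Rik beside Tead1, with a mean of 1.87 FPKM in bFGF/BMP4-treated NSCs, and next Gm20430 beside Lats2. Gm20430 had means of 1.69, 1.04 and 1.78 FPKM with bFGF/EGF, bFGF/BMP4 and BMP4, beside 2.92, 4.65 and 9.68 FPKM of Lats2. Its part in the Lats2 values was not tested, and the strand setting is not given.

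The calls among 26 other Hippo pathway genes, all tested, were near or below the share over all genes. With bFGF/BMP4, 4 were called higher and 2 lower, beside 16.5% and 14.1% of all genes. With BMP4, 5 were called higher and 3 lower, beside 21.3% and 15.4%. In BMP4-treated against bFGF/BMP4-treated NSCs, 2 were called higher and 1 lower, beside 8.41% and 5.14%. Their median log2 fold changes were 0.12, 0.17 and -0.02, beside 0.06, 0.10 and 0 over all genes tested. Wwc2, which encodes a scaffold that activates LATS kinases, rose by 2.72 ± 0.19 with bFGF/BMP4 (adjusted p = 2.5e-06) and by 2.58 ± 0.19 with BMP4 (adjusted p = 2.5e-06). Its means were 3.78 FPKM with bFGF/EGF, 26.0 FPKM with bFGF/BMP4 and 23.1 FPKM with BMP4.

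Wwc1 (KIBRA), the paralog of Wwc2, had another order. It was at 42.6, 47.5 and 43.4 FPKM in bFGF/EGF-treated NSCs, 15.3, 20.8 and 20.0 FPKM in bFGF/BMP4-treated NSCs, and 62.1, 56.8 and 55.6 FPKM in BMP4-treated NSCs. It fell by 1.26 ± 0.13 (log2) with bFGF/BMP4 (adjusted p = 3.6e-05) and was 1.65 ± 0.13 higher in BMP4-treated than in bFGF/BMP4-treated NSCs (adjusted p = 2.3e-05), and the 3 groups did not overlap. With BMP4 it was 0.39 ± 0.13 above bFGF/EGF (adjusted p = 0.030), below 2-fold.

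The atypical cadherins Dchs1 and Fat4, which bind each other across cell contacts, fell with BMP4, and Dchs1 also fell with bFGF/BMP4. Dchs1 was at 14.99 to 18.8 FPKM in bFGF/EGF-treated NSCs, 3.85 to 5.07 FPKM with bFGF/BMP4 and 2.54 to 3.91 FPKM with BMP4, a decrease of -1.93 ± 0.18 (adjusted p = 1.8e-05) and -2.33 ± 0.18 (adjusted p = 3.6e-06). Fat4 was at 2.20 to 4.28, 1.64 to 2.11 and 0.475 to 1.18 FPKM in the same order. It was called lower with BMP4 than with bFGF/EGF (-1.87 ± 0.32, adjusted p = 0.00077), and its difference from bFGF/EGF with bFGF/BMP4 was -0.78 ± 0.32 (adjusted p = 0.072). That difference was called without bFGF/EGF replicate 3 (-1.03, adjusted p = 0.031). Between the day 6 groups Fat4 was called lower with BMP4 (-1.09 ± 0.32, adjusted p = 0.039), and 6 of the 9 fits that left out a library lost this call, with the lowest size without BMP4 replicate 2 (-0.77, adjusted p = 0.11). The others were bFGF/EGF replicate 2, each bFGF/BMP4 replicate and BMP4 replicate 1 (adjusted p = 0.056 to 0.11).

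**Figure D4:**
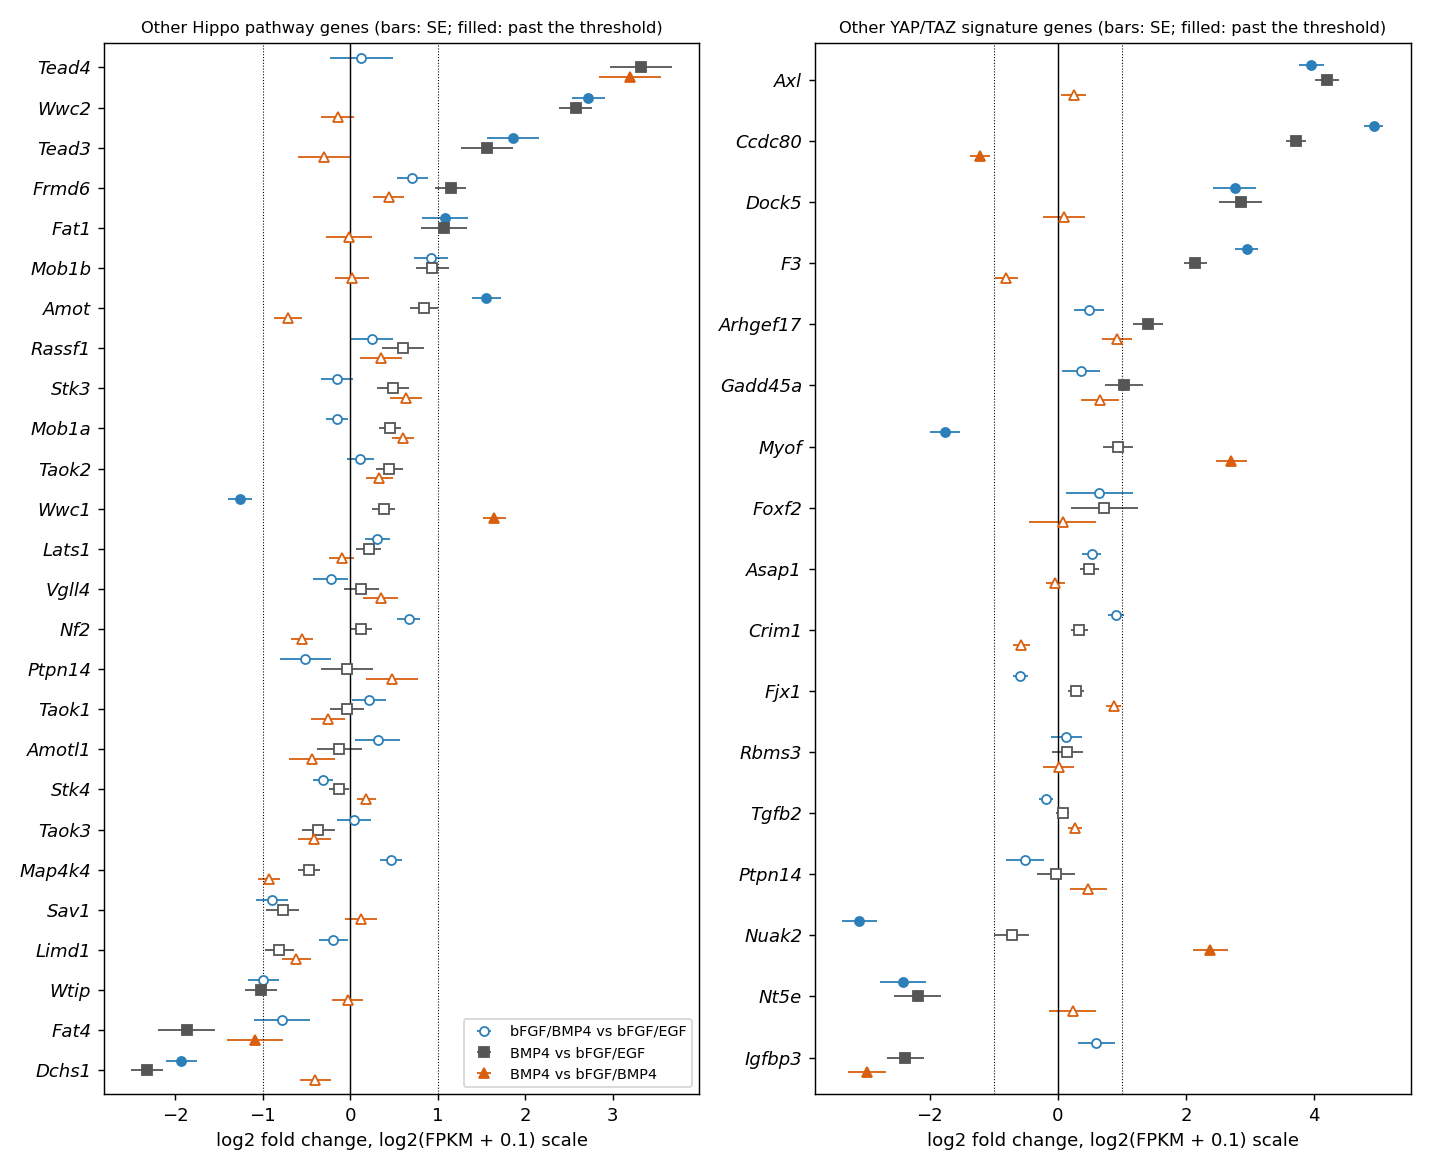
Log2 fold change on the log2(FPKM + 0.1) scale of 26 other Hippo pathway genes (left) and 17 other genes of a published YAP/TAZ signature (right) in the 3 comparisons (colour and symbol); bars are standard errors, filled symbols passed the call and dotted lines mark 2-fold. Filled symbols lie on both sides of 0, with Axl (3.95 and 4.20) and Ccdc80 (4.92 and 3.71) farthest to the right of the targets.

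The other 17 genes of a published signature of YAP/TAZ targets were all tested. The shares called were above those over all genes, except for genes lower with BMP4 than with bFGF/EGF, and rest on few genes. With bFGF/BMP4, 4 were called higher and 3 lower, beside 16.5% and 14.1% of all genes. With BMP4, 6 were called higher and 2 lower, beside 21.3% and 15.4%. In BMP4-treated against bFGF/BMP4-treated NSCs, 2 were called higher and 2 lower, beside 8.41% and 5.14%. Their median log2 fold changes were 0.49, 0.49 and 0.23, beside 0.06, 0.10 and 0 over all genes tested. With a minimum mean of 1 FPKM, the share called in either direction with bFGF/BMP4 was below that over all genes. Ptpn14 belongs to both lists.

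Axl, a receptor tyrosine kinase, was at 1.30, 2.20 and 1.19 FPKM in bFGF/EGF-treated NSCs, 26.1, 24.6 and 23.8 FPKM with bFGF/BMP4 and 30.3, 29.1 and 28.9 FPKM with BMP4. It rose by 3.95 ± 0.19 (adjusted p = 2.9e-07) and 4.20 ± 0.19 (adjusted p = 1.5e-07), and the day 6 groups differed by 0.25 ± 0.19 (adjusted p = 0.44). Ccdc80, which encodes a secreted matrix protein and is also in a list of astrocyte genes that the study used, was at 0.316 to 0.368 FPKM with bFGF/EGF, 11.4 to 14.7 FPKM with bFGF/BMP4 and 5.23 to 6.30 FPKM with BMP4. It rose by 4.92 ± 0.15 with bFGF/BMP4 (adjusted p = 2.5e-08) and by 3.71 ± 0.15 with BMP4 (adjusted p = 8.6e-08), and BMP4 differed from bFGF/BMP4 by -1.21 ± 0.15 (adjusted p = 0.00038).

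Igfbp3, which encodes a secreted binding protein of insulin-like growth factors, and Nuak2, a kinase of the AMPK family, went in opposite directions between the day 6 groups. Igfbp3 was at 652, 872 and 653 FPKM in bFGF/EGF-treated NSCs, 860, 1207 and 1243 FPKM with bFGF/BMP4, and 86.0, 179 and 170 FPKM with BMP4. It fell with BMP4 by -2.38 ± 0.29 against bFGF/EGF (adjusted p = 7.4e-05) and by -2.98 ± 0.29 against bFGF/BMP4 (adjusted p = 7.3e-05). Nuak2 was at 3.17, 3.15 and 2.18 FPKM in bFGF/EGF-treated NSCs, 0.318, 0.1995 and 0.208 FPKM with bFGF/BMP4 (12 to 20 fragments), and 2.33, 1.40 and 1.38 FPKM with BMP4. It fell by -3.10 ± 0.27 with bFGF/BMP4 (adjusted p = 1.3e-05) and was 2.37 ± 0.27 higher with BMP4 than with bFGF/BMP4 (adjusted p = 0.00020).

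**Figure D5:**
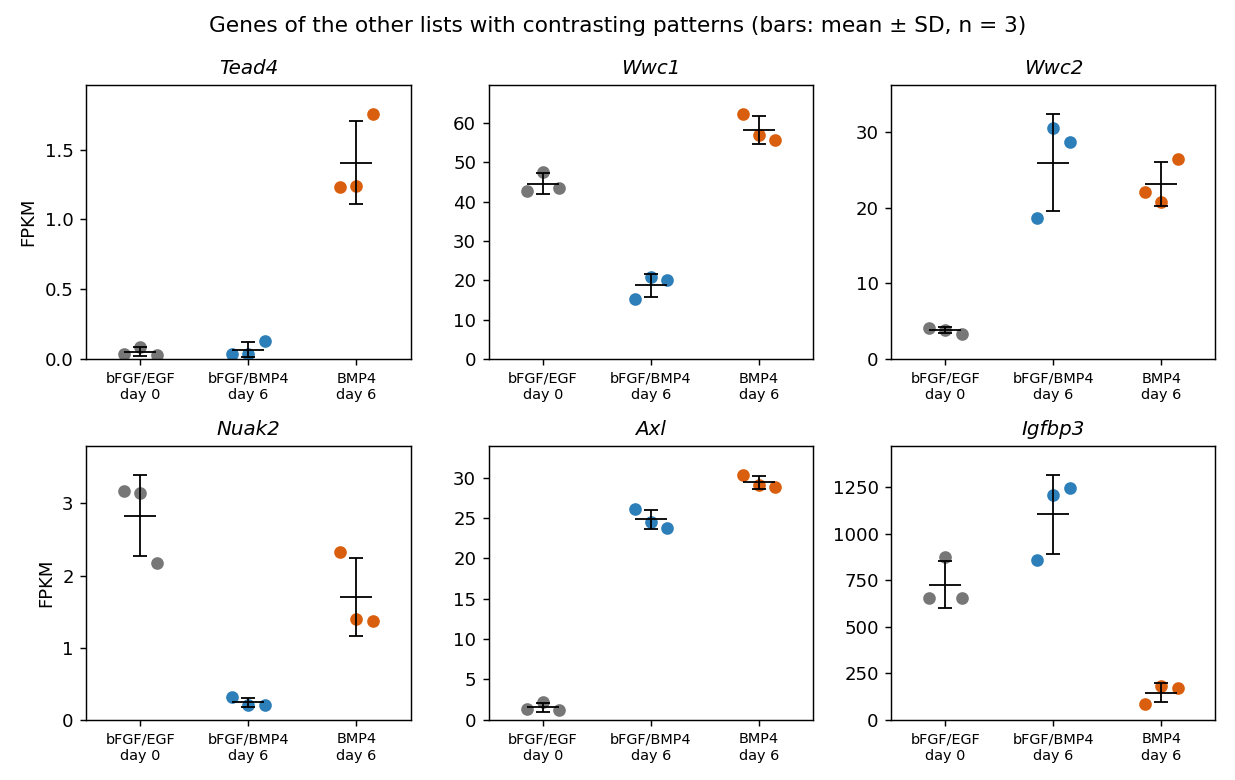
FPKM of Tead4, Wwc1, Wwc2, Nuak2, Axl and Igfbp3 in each of the 9 libraries by group, chosen to show unlike patterns after their values were seen; points are libraries and bars are the mean ± SD of 3 libraries. Wwc1 (mean 18.7 FPKM) and Nuak2 (0.242 FPKM) were lowest with bFGF/BMP4, Igfbp3 (145 FPKM) was lowest with BMP4, and Tead4 (1.41 FPKM) was highest with BMP4.

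The genes whose log2(FPKM + 0.1) was most like that of Yap1, Ccn1 and Ccn2 over the 9 libraries were found among 7899 genes with a mean of at least 5 FPKM. These correlations are descriptions, since the 9 libraries fall into 3 groups. For Yap1 they were Chst2 (Pearson's r = 0.993), Dtnb (0.993) and Miga2 (0.992), all with the highest mean in bFGF/BMP4-treated NSCs (462, 14.4 and 38.5 FPKM) and the lowest in bFGF/EGF-treated NSCs (45.9, 3.78 and 9.91 FPKM). For Ccn1 they were Rabggta (0.986), the ligand gene Wnt9a (0.983) and Eef1akmt2 (0.983), and for Ccn2 they were the matrix gene Ecm1 (0.989), Pawr (0.986) and Morn2 (0.986). Ccn1 and Ccn2 were close to each other (r = 0.978), Ccn2 being the 8th nearest gene to Ccn1. Lats2 was the 24th nearest to Ccn1 (r = 0.969) and the 11th nearest to Ccn2 (r = 0.972). Yap1 was farther from Ccn1 (r = 0.396) and Ccn2 (r = 0.477), and Wwtr1 had r of 0.909 with Yap1.

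Markers of the labelled cells and of others were read beside these results. Sox2, a marker of NSCs, was at means of 167, 137 and 137 FPKM with bFGF/EGF, bFGF/BMP4 and BMP4, and Nes at 151, 3.55 and 15.8 FPKM. The summed FPKM of 6 NSC markers was 1701 to 1814, 741 to 841 and 1460 to 1908. Ccn1 and Ccn2 are known to be high in vessel cells and fibroblasts. The endothelial markers Cldn5 and Cdh5, the mural markers Kcnj8 and Abcc9 and the fibroblast markers Dcn, Lum and Col3a1 were at no more than 3 fragments in every library. The 6 endothelial markers summed to 0.186 to 0.330, 1.14 to 1.71 and 2.87 to 4.18 FPKM (mainly Kdr), the 6 mural markers to 3.30 to 4.33, 16.8 to 21.2 and 14.3 to 20.6 FPKM (mainly Notch3), and the 6 fibroblast markers to at most 1.01 FPKM. Rgs5 (means of 0.043, 0.621 and 0.949 FPKM), Pdgfrb (0.014, 0.071 and 0.385 FPKM) and Col1a1 (0.118, 0.105 and 0.287 FPKM) were highest with BMP4. Notch3 (3.52, 18.7 and 16.7 FPKM) and Col1a2 (0.016, 0.046 and 0.015 FPKM) were highest with bFGF/BMP4, and Des (0.108, 0.023 and 0.077 FPKM) and Pdgfra (0.767, 0.134 and 0.118 FPKM) with bFGF/EGF. The 6 ependymal markers summed to 8.74 to 13.3, 11.2 to 12.2 and 59.3 to 71.7 FPKM (mainly Foxj1, with Tmem212 at no more than 3 fragments). The 6 neuronal markers summed to 349 to 378, 31.7 to 34.0 and 143 to 235 FPKM. That sum was mainly Gap43 with bFGF/EGF (means of 331, 13.1 and 40.6 FPKM) and mainly Tubb3 with BMP4 (20.3, 17.0 and 145 FPKM). Snap25 (2.60, 1.20 and 4.38 FPKM) and Dcx (0.187, 0.116 and 0.904 FPKM) also had their highest mean with BMP4, with an SD of 0.938 FPKM for Dcx there. Rbfox3 (0.989, 1.57 and 0.522 FPKM) was lowest with BMP4, and Syt1 (3.83, 0.137 and 0.371 FPKM) was highest with bFGF/EGF. The oligodendrocyte markers Mog and Mag were at no more than 3 fragments in every library. The 6 microglial markers summed to at most 1.74 FPKM, with Aif1, Csf1r and C1qa at no more than 3 fragments. The endothelial, ependymal and microglial sums were thus highest in the same group as Ccn1, Ccn2, Lats2 and Ajuba. The endothelial sum was so through Kdr (means of 0.152, 1.18 and 3.31 FPKM) and the microglial sum through Tmem119 (0, 0.257 and 1.34 FPKM). The means of Tubb3, Snap25, Dcx, Rgs5, Pdgfrb and Col1a1 were also highest there, but not those of Gap43, Rbfox3, Syt1, Notch3, Col1a2, Des or Pdgfra. Nor were those of Pecam1 (0.017, 0.230 and 0.043 FPKM), Tek (0.025, 0.041 and 0.009 FPKM), Flt1 (0.066, 0.021 and 0.063 FPKM), Cx3cr1 (0.005, 0.028 and 0.009 FPKM) and P2ry12 (0.561, 0.153 and 0.225 FPKM). The part of other cells in the results for Ccn1, Ccn2, Lats2 and Ajuba was not tested.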

How the data were processed

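Bulk RNA-seq libraries (insert 370 to 420 bp) of 3 groups of 3 were analysed. The authors trimmed reads with fastp 0.19.7, aligned them to mm39 (GRCm39) with HISAT2 2.0.5 and counted fragments per gene with featureCounts 1.5.0-p3, per the submitters' processing notes, and deposited FPKM values. The annotation release and strand setting are not given in the sources used here. The authors used DESeq2 on counts not used here. Symbols and positions were taken from GENCODE vM39 (54749 of 55704 identifiers matched).

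From the FPKM values, whole fragment numbers were rebuilt for 30860 of 30860 genes above 0 (within 0.2 fragment). limma 3.58.1 (R 4.3.3) with a trend was fitted to log2(FPKM + 0.1) of all 9 libraries and 20207 genes with a mean of at least 0.1 FPKM, and tested on simulated data. p-values were adjusted over all genes, and the study's thresholds (adjusted p of at most 0.05, at least 2-fold) were kept. P-values set the difference of group means against the spread between libraries of the same group, pooled over the 3 groups and moderated over all genes. They do not cover the spread between isolations where libraries came from 1 isolation. The other genes named were, per list and comparison, the 3 called genes with the largest change and a mean of at least 1 FPKM, and the 3 genes most correlated with Yap1, Ccn1 and Ccn2. Start-site windows came from RefSeq (GRCm38.p6) and were placed in GRCm39 by exact match. There were 8 alternative settings, and each of 9 libraries was left out in turn. Members and lists were chosen with earlier results of these data known. The planned comparison of protein sequences was not made. The summed level of the oligodendrocyte markers is not reported here.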

Additional observations from a re-analysis of the deposited data

How the results depend on the processing

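Of the log2 fold changes of the 9 tested YAP/TAZ genes, 443 values under the alternative settings kept their direction and their side of the call, 12 lost a call, 2 gained one and 2 changed sign. For the other genes named from the lists, 448 kept both, 10 lost a call and 1 gained one. The sign changes were of values near 0 that were not called: Tead1 in BMP4-treated against bFGF/BMP4-treated NSCs was 0.0033 without BMP4 replicate 2 (from -0.26 to 0.0033 over the 9 fits that left out a library), and Tead2 in the same comparison was -0.029 without bFGF/BMP4 replicate 3 (from -0.029 to 0.27). The lost and gained calls of Ccn1, Ccn2, Lats2, Ajuba and Fat4 in single-library fits are given beside those genes. Tead3 fell below 2-fold in BMP4-treated against bFGF/EGF-treated NSCs with a pseudocount of 1 (0.94), and Fat4 lost its call between the day 6 groups with a pseudocount of 1, with no filter and when only those groups were fitted (adjusted p = 0.058, 0.066 and 0.071).

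With a pseudocount of 1, the other YAP/TAZ targets called went from 7 to 4 with bFGF/BMP4 and from 8 to 5 with BMP4, and the other Hippo genes called with BMP4 from 8 to 5. With a minimum mean of 1 FPKM, 4 other targets were called with bFGF/BMP4, of 13 left to test. Of all 12947 genes tested at that setting, 2259 were called higher and 2128 lower, a larger share than that of the targets. Over all genes, called higher and lower went from 3327 and 2847 to 1723 and 1821 with bFGF/BMP4, from 4297 and 3103 to 2326 and 2038 with BMP4, and from 1699 and 1039 to 890 and 559 between the day 6 groups with a pseudocount of 1. With a minimum mean of 1 FPKM, 1012 and 788 were called between the day 6 groups. The largest shift of the median of all genes by scaling was from 0.10 to 0.02 (TPM scale, BMP4 against bFGF/EGF).

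No pairing of the libraries by replicate number was seen over all genes. The correlation of the deviations of same-numbered libraries from their group means ran from -0.21 to 0.22. For differently numbered libraries it ran from -0.25 to 0.19. With 3 libraries per group, these values cannot exclude a pairing. With the replicate number as a block, the called YAP/TAZ genes numbered 5, 6 and 4, the other Hippo genes 6, 8 and 3 and the other targets 7, 8 and 4, the same counts as without it. In bFGF/BMP4-treated against bFGF/EGF-treated NSCs, the block gave Ccn2 an SE of 0.27 (adjusted p = 0.0015 in limma), beside 0.49 without it. Ccn1 then had an adjusted p of 0.029, still below 2-fold.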

Other observations

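Relatives of the CCN and TEAD-partner genes were looked at after the values above were seen. Of the other CCN genes, Ccn5, which encodes a matricellular protein without the C-terminal domain of its relatives, was higher with BMP4 (mean 1.45 ± 0.85 FPKM, SD, n = 3) than with bFGF/EGF (0.138 ± 0.118 FPKM) or bFGF/BMP4 (0.046 ± 0.040 FPKM), with adjusted p of 0.0025 and 0.0021 in limma, and had at most 8 fragments in a bFGF/EGF-treated and 2 in a bFGF/BMP4-treated library. Ccn6 had means of 0.386, 0.411 and 0.086 FPKM and was called lower with BMP4 against both groups (adjusted p = 0.022 and 0.0496), at no more than 15 fragments in any library. Ccn3 and Ccn4 were too low to test.

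Vestigial-like proteins bind TEAD in place of YAP and TAZ. Vgll4, the most abundant of the 4 genes, had means of 24.7, 20.8 and 26.5 FPKM with bFGF/EGF, bFGF/BMP4 and BMP4 and was called in none of the 3 comparisons (-0.22 with adjusted p = 0.39 for bFGF/BMP4 and 0.13 with adjusted p = 0.62 for BMP4 against bFGF/EGF, and 0.35 with adjusted p = 0.27 between the day 6 groups, on the log2 scale). Vgll2 had a mean of 2.12 ± 0.70 FPKM (SD, n = 3) in bFGF/EGF-treated NSCs, at most 5 fragments in a bFGF/BMP4-treated library and 0 in the 3 BMP4-treated libraries, and was called lower with bFGF/BMP4 (adjusted p = 0.00016) and with BMP4 (adjusted p = 2.2e-05). Vgll1 was at 0 in all 9 libraries and Vgll3 was too low to test.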
